A study of Mus musculus with 4 samples.

Results

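The genes described here are 9 members of the interleukin-10 (IL-10) and gp130 cytokine families. They comprise 7 receptor subunits (Il10ra, Il10rb, Il6ra, Il6st, Il27ra, Lifr and Osmr) and 2 cytokines (Il10 and Il6), taken by gene symbol from the 22083 genes of the deposited expression table. All 9 were found there. They were compared in group 2 innate lymphoid cells (ILC2s), tissue-resident lymphocytes without antigen receptors that make type 2 cytokines. The ILC2s were sorted from the small intestinal lamina propria (SI-ILC2s, 2 libraries) or from mesenteric white adipose tissue (WAT-ILC2s, 2 libraries) of C57BL/6 wild-type mice aged 9 weeks, and no treatment is named in the labels. The labels give neither separate mice nor pools for the pair of libraries from a tissue, so the p-values reflect spread among libraries alone, and this spread may be technical.

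IL-10 signals through a receptor of IL-10RA, which binds the cytokine with high affinity, and IL-10RB, a subunit shared with the receptors for IL-22 and the lambda interferons. IL-6, IL-27, leukaemia inhibitory factor (LIF) and oncostatin M (OSM) signal through gp130, the product of Il6st, which pairs with the IL-27 receptor alpha chain (Il27ra), the LIF receptor (Lifr) or the OSM receptor (Osmr), or is brought together by IL-6 bound to IL-6RA. Both families act through JAK kinases and chiefly STAT3. In lymphocytes IL-10 and IL-27 are known mainly for restraining responses, whereas IL-6 is known as a promoter of inflammation.

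The receptor subunits with enough signal to test and the cytokine Il6 lay on opposite sides of the comparison. The IL-10 receptor genes Il10ra and Il10rb, the gp130 gene Il6st and the IL-27 receptor gene Il27ra were higher in WAT-ILC2s, and Il6 was higher in SI-ILC2s. Of the 9 genes, 5 had at least 1 RPKM in at least 2 libraries and were tested, and all 5 were called, with 1 on the SI-ILC2 side and 4 on the WAT-ILC2 side (limma on log2(RPKM + 1), Benjamini-Hochberg adjusted p below 0.05 over all tested genes). Il6ra, Lifr, Osmr and Il10 stayed below that level in every library, so the 5 are not the whole group. RPKM is a read density, scaled to gene length and library depth. Among all 8230 tested genes 47.5% were called, of which those with the higher level in SI-ILC2s made up 17.9% of the tested genes and those with the higher level in WAT-ILC2s 29.6%. The share of calls on the SI-ILC2 side was 37.6%, and it was 51.8% after median-of-ratios scaling, 48.4% after quantile normalization and 28% after rescaling to equal sums. The libraries of the tissues did not overlap for 8 of the 9 genes, against 54.4% of the 21851 genes with a value above 0. How cells were freed from each tissue is not described in the labels, and any effect of that step on the levels cannot be told apart from the tissue itself. In bulk samples fewer cells of a type and less RNA per cell cannot be told apart either.

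The DNA in front of Il6 and of Il6st is shown because these genes were the cytokine and the shared receptor subunit that differed in opposite directions. Each sequence is the 250 bases before the gene's start in RefSeq (GRCm38.p6), on the gene's strand. That of Il6 is chr5:30012864-30013113 (plus strand) and that of Il6st chr13:112463820-112464069 (plus strand). Capitals mark matches to any of the motifs searched.

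Il6: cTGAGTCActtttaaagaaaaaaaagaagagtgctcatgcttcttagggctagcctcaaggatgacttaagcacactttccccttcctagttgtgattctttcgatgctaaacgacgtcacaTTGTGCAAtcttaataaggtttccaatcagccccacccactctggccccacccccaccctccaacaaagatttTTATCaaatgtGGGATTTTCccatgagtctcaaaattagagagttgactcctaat
Il6st: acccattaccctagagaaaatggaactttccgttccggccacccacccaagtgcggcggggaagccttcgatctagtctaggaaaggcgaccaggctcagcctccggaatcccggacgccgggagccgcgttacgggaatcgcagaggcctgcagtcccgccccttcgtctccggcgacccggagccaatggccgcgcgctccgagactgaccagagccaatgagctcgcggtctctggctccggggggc

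The motifs, searched on both strands, were TTCCNGGAA and the looser TTCNNNGAA (STAT factors), GATAA (GATA factors), GGGNNTTCC and GGGNNNTTC (NF-kappaB), TTGNGCAA (C/EBP factors), TGACGTCA (CREB and related factors) and TGANTCA (AP-1). GGGNNNTTC and the last 3 were added after the sequences had been seen. In Il6 the match to GGGNNNTTC lay at bases -44 to -36 before the start, the match to TTGNGCAA at -128 to -121, that to TGANTCA at -249 to -243, and that to GATAA at -55 to -51 on the other strand. Of 32851 such windows in all genes, 11.8% held GGGNNNTTC, 2.61% TTGNGCAA, 6.75% TGANTCA and 22.6% GATAA. None of the motifs occurred in the Il6st window. GGGNNTTCC (4.98% of windows), TTCCNGGAA (0.913%), TTCNNNGAA (7.02%) and TGACGTCA (1.55%) were in neither. Windows were given for 5 of the 9 genes. Besides Il6 these were Il6st, Il6ra, Osmr and Lifr (with 2 starts), and the only matches among the last 3 were GATAA in Il6ra and at 1 start of Lifr.

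Il10ra, the ligand-binding subunit of the IL-10 receptor, had 9.71 and 9.77 RPKM in the SI-ILC2 libraries and 46.9 and 55.2 RPKM in the WAT-ILC2 libraries. Both adipose libraries lay far above both intestinal ones, which were almost equal to each other. The mean level was 9.74 ± 0.0446 (SD, n = 2) against 51.1 ± 5.89 RPKM, 5.24-fold higher in WAT-ILC2s. On the log2(RPKM + 1) scale the difference, SI-ILC2 minus WAT-ILC2, was -2.27 (SE 0.15, 95% interval -2.62 to -1.92, limma adjusted p = 2.6e-04). Ranked by this difference it was number 50 of the 8230 tested genes, counted from the WAT-ILC2 side. The gene lies on chromosome 9, 45253837 to 45269149 (GRCm38, minus strand), and shares no exon with another annotated gene.

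Il10rb, the shared subunit, had 5.17 and 4.85 RPKM in SI-ILC2s against 11.5 and 13.8 RPKM in WAT-ILC2s. It was higher in both adipose libraries, by less than Il10ra, with a log2 difference of -1.18 (SE 0.15, 95% interval -1.54 to -0.81, limma adjusted p = 0.0019). The ratio of Il10ra to Il10rb, a comparison of levels per length within a library, was 1.88 and 2.02 in SI-ILC2s against 4.10 and 3.99 in WAT-ILC2s. Il10ra was thus the more abundant subunit transcript in all 4 libraries, and its excess was larger in adipose tissue. The smallest two-sided p that an exact permutation test over 2 and 2 libraries allows is 0.333, and the ratios are given as a description. Il10rb (chromosome 16, 91406164 to 91425834, plus strand) shares 569 exonic bases with Gm21970, a gene on the same strand that reaches upstream of it. Gm21970 was listed at 5.23 and 5.39 RPKM in SI-ILC2s against 13.1 and 14.5 RPKM in WAT-ILC2s, close to Il10rb in each library, and the sources used here do not state how reads common to both were counted.

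Il10rb stands in a cluster of receptor genes on chromosome 16, whose other members were looked up after its values had been seen. Ifnar2 and Ifnar1, the subunits of the receptor for type I interferons, were at 4.98 and 16.1 RPKM on average in SI-ILC2s against 11.3 and 32.3 RPKM in WAT-ILC2s. Their log2 differences were -1.04 and -0.96, with limma adjusted p-values of 0.0019 and 0.0024. Ifngr2, a subunit of the receptor for interferon gamma, was at 14.3 and 12.6 RPKM against 22.6 and 19.0 RPKM (log2 difference -0.59, adjusted p = 0.022, and 0.083 after median-of-ratios scaling). Without SI-ILC2 replicate 1 or 2 or WAT-ILC2 replicate 1 the call of Ifngr2 was lost as well (0.073, 0.13 and 0.070). Further along the chromosome, Tmem50b did not pass the test (log2 difference -0.29, adjusted p = 0.15). Gart, an enzyme of purine synthesis, was higher in WAT-ILC2s (-0.62, adjusted p = 0.012), a call lost without SI-ILC2 replicate 1 or 2 (0.076 and 0.066).

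Il27ra, which pairs with gp130 to bind IL-27, had 14.8 and 20.2 RPKM in SI-ILC2s against 30.6 and 37.7 RPKM in WAT-ILC2s. The groups did not overlap, but the intestinal libraries differed from each other by more than for either IL-10 receptor gene. The means were 17.5 ± 3.86 and 34.1 ± 5.03 RPKM, and the log2 difference was -0.93 (SE 0.20, 95% interval -1.41 to -0.46, limma adjusted p = 0.010). Without SI-ILC2 replicate 1 the difference was -0.72 and the call was lost (adjusted p = 0.068). The gene is on chromosome 8, 84030294 to 84042589 (minus strand).

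Il6st, the gene of gp130, was low in both tissues, at 0.545 and 0.625 RPKM in SI-ILC2s against 2.67 and 2.05 RPKM in WAT-ILC2s. Only the adipose libraries exceeded 1 RPKM, so the gene entered the test through the tissue in which it was high. The mean was 4.03-fold higher in WAT-ILC2s, with a log2 difference of -1.08 (SE 0.14, 95% interval -1.42 to -0.74, limma adjusted p = 0.0020). That scale understates the change of genes this low, and with a pseudocount of 0.1 in place of 1 the difference was -1.83. Without either WAT-ILC2 library the gene did not reach the filter and had no test. The transcript is long, with 11099 exonic bases, and its values correspond to about 413 to 1649 reads per library. It lies on chromosome 13, 112464070 to 112510086 (plus strand).

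**Figure D1:**
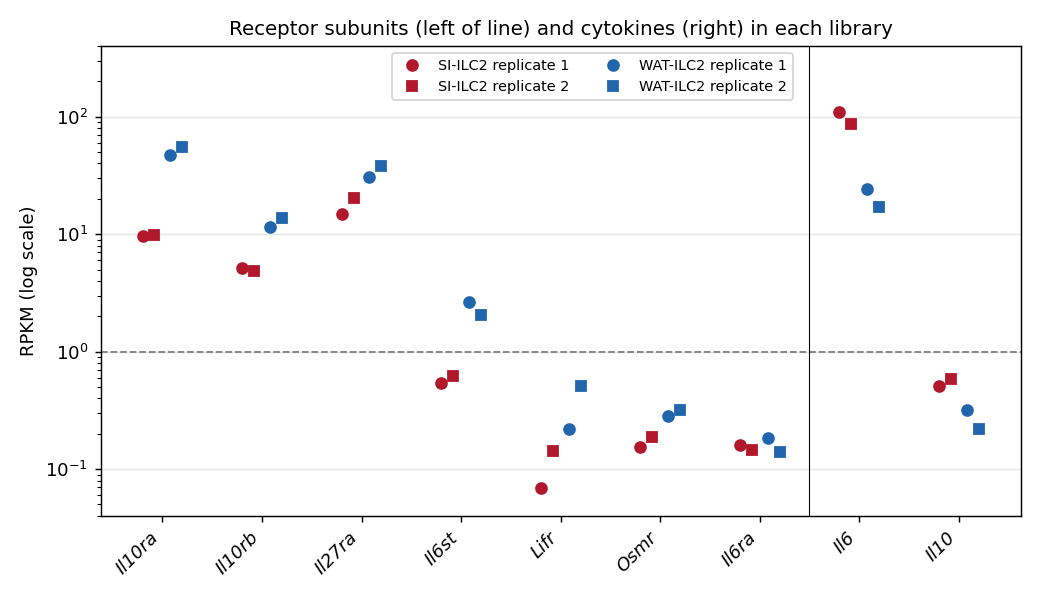
Level of each of the 9 genes in each library, in RPKM on a log axis. Red points are SI-ILC2 and blue points WAT-ILC2 libraries, circles are replicate 1, squares replicate 2, and the dashed line marks 1 RPKM. Il10ra, Il10rb, Il27ra and Il6st lie higher in both blue libraries, Il6 in both red ones, and Il6ra, Lifr, Osmr and Il10 stay under the line.

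The other gp130 partners among the 9 genes were near the lower end of the scale. Il6ra, the IL-6-binding subunit, was at 0.161 and 0.145 RPKM in SI-ILC2s against 0.183 and 0.141 RPKM in WAT-ILC2s. Its libraries overlapped, and with no filter on low values its adjusted p was 0.94 (limma). These values correspond to about 75 to 106 reads over 8642 exonic bases, so a transcript was counted in every library at a low level. Lifr, the LIF receptor, was at 0.0685 and 0.142 RPKM in SI-ILC2s against 0.222 and 0.510 RPKM in WAT-ILC2s. Osmr, the OSM receptor, was at 0.154 and 0.187 RPKM against 0.286 and 0.316 RPKM. Both were higher in each adipose library than in each intestinal one, at about 56 to 360 reads for Lifr and 135 to 251 reads for Osmr. With no filter, neither passed the test (limma adjusted p = 0.13 for Lifr and 0.24 for Osmr). Il6ra is on chromosome 3, 89864059 to 89913196. Lifr (7090614 to 7197489) and Osmr (6813577 to 6874969) are both on chromosome 15.

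Of the summed RPKM of the gp130 partners Il6ra, Il27ra, Lifr and Osmr, Il27ra made up 97.5% to 97.8% in each of the 4 libraries. The ratio of Il27ra to Il6st was 27.1 and 32.4 in SI-ILC2s against 11.5 and 18.4 in WAT-ILC2s, so the excess of Il27ra over the gp130 transcript was larger in the intestine. Il6ra and Osmr stayed below Il6st in all libraries. The ratio of Il6ra to Il6st was 0.296 and 0.233 in SI-ILC2s against 0.0687 and 0.0689 in WAT-ILC2s. For Osmr the ratios were 0.283 and 0.300 against 0.107 and 0.154. The ratio of Lifr to Il6st overlapped between tissues, at 0.126 and 0.227 against 0.0831 and 0.249.

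**Figure D2:**
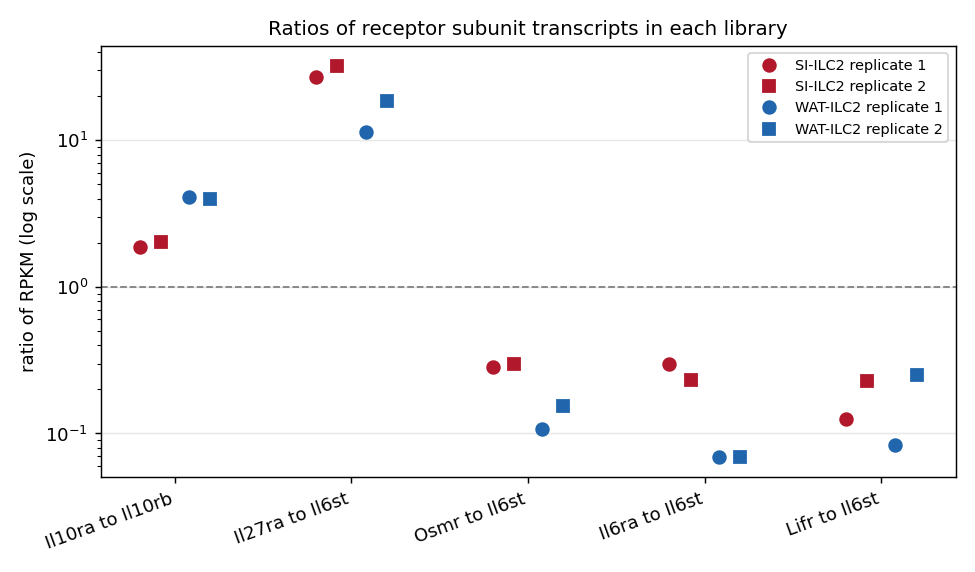
Ratio of RPKM between subunits of a receptor in each library, on a log axis, with red for SI-ILC2 and blue for WAT-ILC2 libraries and a dashed line at a ratio of 1. Il10ra to Il10rb is higher in both WAT-ILC2 libraries (4.10 and 3.99), Il27ra, Osmr and Il6ra to Il6st are higher in both SI-ILC2 libraries, and Lifr to Il6st overlaps.

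Il6 was the most abundant of the 9 genes in SI-ILC2s. Its levels there were 110.3 and 86.5 RPKM, and those in WAT-ILC2s were 24.3 and 17.0 RPKM. Both intestinal libraries lay far above both adipose ones. The means were 98.4 ± 16.8 and 20.6 ± 5.14 RPKM, a 4.77-fold difference, and the log2 difference was 2.21 (SE 0.22, 95% interval 1.69 to 2.73, limma adjusted p = 7.7e-04). Ranked by this difference it was number 66 of the tested genes, counted from the SI-ILC2 side. In SI-ILC2s the mean of Il6 exceeded that of 99% of the genes in the table, and in WAT-ILC2s that of 95.5%. The gene lies on chromosome 5, 30013114 to 30019981 (plus strand), and shares no exon with another annotated gene. Its protein-coding neighbours within 200 kb that were tested (Tyms, Hadha, Hadhb and Dnajb6) had log2 differences of -0.21 to 0.34 and none was called.

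Il10 was at 0.512 and 0.588 RPKM in SI-ILC2s against 0.316 and 0.221 RPKM in WAT-ILC2s. Both intestinal libraries were above both adipose ones, the same order as for Il6, at a far lower level. The values correspond to about 46 to 51 reads in SI-ILC2s and 19 to 23 in WAT-ILC2s. The gene entered the test when the filter was lowered to 0.5 RPKM in 2 libraries, with an adjusted p of 0.059, and with no filter it was 0.13 (limma), so no difference was called. Il10 (chromosome 1, 131019845 to 131024974) stands beside the related cytokine genes Il19, Il20 and Il24. Of these, Il19 was at 0.342 and 0.297 RPKM in SI-ILC2s against 0.0548 and 0.0667 RPKM in WAT-ILC2s. It was below the filter, and with no filter it was called higher in SI-ILC2s (limma adjusted p = 0.017). Its WAT-ILC2 values rest on about 4 and 5 reads. Il20 and Il24 reached at most 0.108 and 0.0677 RPKM. Mapkapk2, the nearest gene on the other side, encodes a kinase that stabilises cytokine mRNAs and was at 16.2 and 24.0 RPKM against 8.48 and 11.6 RPKM (log2 difference 0.92, limma adjusted p = 0.018). Without SI-ILC2 replicate 2 its call was lost (0.078).

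**Figure D3:**
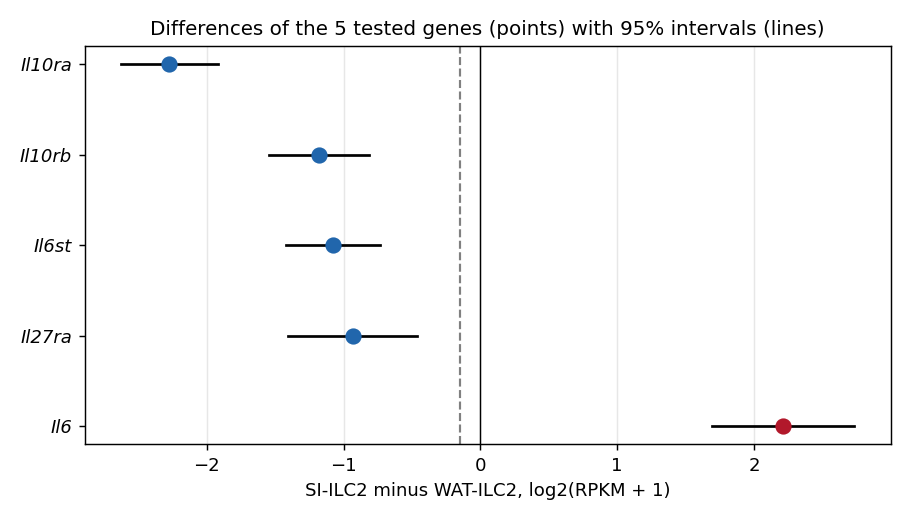
Difference in log2(RPKM + 1), SI-ILC2 minus WAT-ILC2, for the 5 tested genes. Points are estimates, lines are 95% intervals from the limma fit over all genes, and the dashed line is the median difference of all tested genes (-0.15). The interval of Il10ra runs from -2.62 to -1.92 and that of Il6 from 1.69 to 2.73, and none of the 5 reaches the dashed line.

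The order of levels differed between the tissues. In SI-ILC2s Il6 came first, followed by Il27ra, Il10ra and Il10rb, each separated from the next in both libraries. Il6st and Il10 (0.585 and 0.550 RPKM) were not separated, nor were Osmr and Il6ra (0.171 and 0.153 RPKM), and Lifr was last at 0.105 RPKM. In WAT-ILC2s Il10ra came first, followed by Il27ra, Il6, Il10rb and Il6st, again without overlap between neighbours. Next came Lifr, Osmr and Il10 (0.366, 0.301 and 0.268 RPKM), of which Lifr was not separated from Osmr, nor Osmr from Il10, and Il6ra was last at 0.162 RPKM. The median difference of all tested genes was -0.15 on the log2 scale. It was 0.00 after median-of-ratios scaling, -0.02 after quantile normalization and -0.26 after rescaling to equal sums. Relative to the median under each of these 4 scalings, the difference of Il10ra was -2.24 to -2.09, that of Il10rb -1.07 to -1.01, that of Il6st -0.98 to -0.87, that of Il27ra -0.90 to -0.75 and that of Il6 2.20 to 2.40.

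Receptors of both families outside the 9 genes were mostly near the lower end of the scale. Of 5 further receptor genes of the IL-10 family, only Il20rb, a subunit for IL-19, IL-20 and IL-24, was tested, at 1.36 and 1.05 RPKM in SI-ILC2s against 0.924 and 1.10 RPKM in WAT-ILC2s. Its libraries overlapped (log2 difference 0.13, limma adjusted p = 0.45). Of 10 further genes of gp130-type receptors, 2 were tested. Il11ra1, the IL-11-binding subunit, was at 0.883 and 0.771 RPKM against 1.46 and 1.44 RPKM, higher in WAT-ILC2s (log2 difference -0.43, adjusted p = 0.026). It reached the filter only through the WAT-ILC2 libraries, and with no filter its call was lost (0.095). It was also lost after median-of-ratios scaling (0.066) and quantile normalization (0.15), and without SI-ILC2 replicate 1 or 2 (0.083 and 0.13). Il12rb1, a subunit of the receptors for IL-12 and IL-23, was at 8.19 and 10.1 RPKM against 6.42 and 6.16 RPKM, higher in SI-ILC2s (log2 difference 0.47, adjusted p = 0.045), a call lost after rescaling to equal sums (0.14) and without any 1 of the 4 libraries (0.051 to 0.28).

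Cytokines of the gp130 family differed in both directions. Of 13 listed genes, which include relatives such as Il31 that act through other receptors, 6 were tested, Il6 included. There were 2 calls on each side, against 17.9% (SI-ILC2) and 29.6% (WAT-ILC2) of all tested genes. The median log2 difference was 0.17 against -0.15 over all tested genes. Lif was at 27.9 and 32.8 RPKM in SI-ILC2s against 10.1 and 12.0 RPKM in WAT-ILC2s (log2 difference 1.38, SE 0.16, limma adjusted p = 0.0013), the same direction as Il6. Clcf1, which signals through the ciliary neurotrophic factor receptor with gp130 and Lifr, was at 2.87 and 1.88 RPKM against 10.8 and 9.32 RPKM, higher in WAT-ILC2s (-1.72, SE 0.19, adjusted p = 0.0011), and shares 311 exonic bases with a gene on the same strand. Cntf, the gene of ciliary neurotrophic factor itself, was at 0.955 and 0.889 RPKM against 3.003 and 3.529 RPKM, also higher in WAT-ILC2s (-1.15, SE 0.14, adjusted p = 0.0015). It reached the filter only through the WAT-ILC2 libraries, so that without either of them it had no test and 1 call was left on that side. Of its 1073 exonic bases 847 are shared with Zfp91 on the same strand, which was at 3.13 and 3.26 RPKM against 3.55 and 3.03 RPKM. Osm was at 8.17 and 6.87 RPKM against 6.14 and 5.13 RPKM (0.36, adjusted p = 0.11, and 0.043 after median-of-ratios scaling). Ebi3, a chain of IL-27 and IL-35, overlapped at 5.09 and 4.25 RPKM against 5.72 and 3.89 RPKM (-0.02, adjusted p = 0.94), while its IL-27 partner Il27 reached at most 0.149 RPKM.

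Among 7 cytokine genes of the IL-10 family, Il22 alone was tested, and its level was 1.76 and 3.50 RPKM in SI-ILC2s against 0.0649 and 0.0137 RPKM (log2 difference 1.76, limma adjusted p = 0.0019). It entered the test through the tissue in which it was high, and without either SI-ILC2 library it did not reach the filter and had no test. Its WAT-ILC2 values rest on about 4 and 1 reads. Il22 uses Il10rb as a receptor subunit, and its own receptor gene Il22ra1 reached at most 0.0563 RPKM. Il22 is also a marker of type 3 lymphoid cells, and the summed RPKM of 6 markers of those cells, Il22 included, was 4.31 and 6.39 in SI-ILC2s against 2.27 and 3.02 in WAT-ILC2s. Without Il22 the sums of the other 5 markers overlapped (2.55 and 2.89 against 2.20 and 3.01). Among these, Il17f was at 1.29 and 1.37 RPKM against 0.170 and 0.0772 RPKM, whereas Nrp1 had the opposite order (0.187 and 0.389 against 1.76 and 2.51 RPKM). The part of such cells in the Il22 result was not tested.

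**Figure D4:**
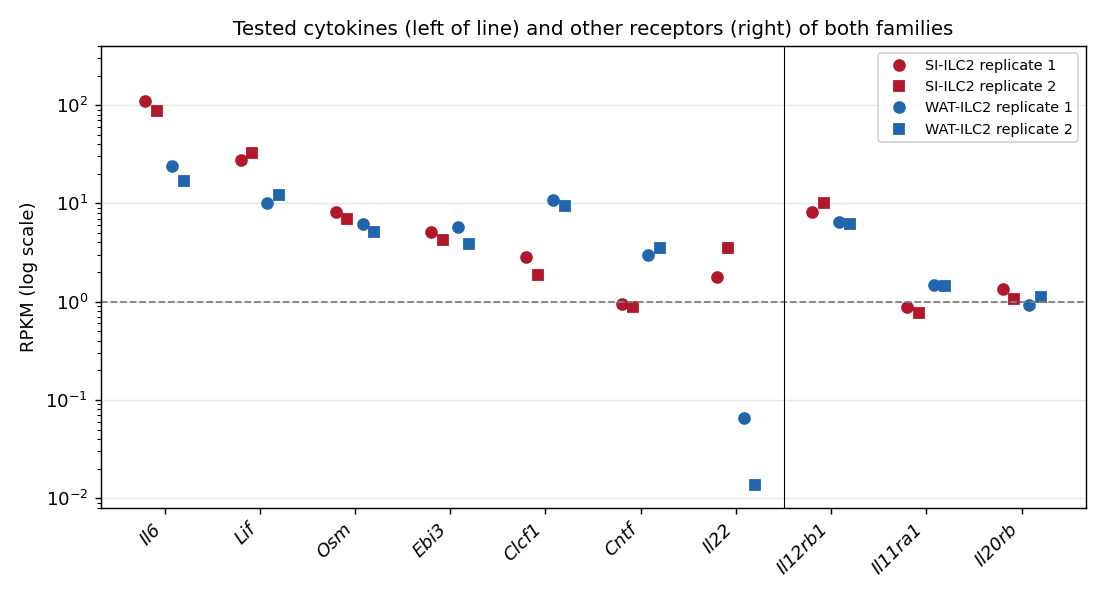
Level in each library of every tested cytokine and further receptor of both families, in RPKM on a log axis, with red for SI-ILC2 and blue for WAT-ILC2 libraries and a dashed line at 1 RPKM. Il6, Lif and Il22 are higher in both red libraries, Clcf1 and Cntf in both blue ones, and Ebi3 and Il20rb overlap.

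Parts of the JAK-STAT pathway downstream of these receptors also differed in both directions. Among 14 tested genes there were 5 calls on the SI-ILC2 side and 4 on the WAT-ILC2 side, with a median of 0.01. These counts are to be read against 17.9% and 29.6% of all tested genes. After median-of-ratios scaling these counts were 6 and 0, and after rescaling to equal sums 3 and 4. The WAT-ILC2 count was 0 without SI-ILC2 replicate 1 or 2, 1 without WAT-ILC2 replicate 1 and 2 without WAT-ILC2 replicate 2, and the SI-ILC2 count was 3 without SI-ILC2 replicate 2. Stat3, the main signal transducer of both families, was at 77.0 and 94.8 RPKM in SI-ILC2s against 19.3 and 25.0 RPKM in WAT-ILC2s (log2 difference 1.91, SE 0.19, limma adjusted p = 7.8e-04). It was called in the same direction under all 15 alternative settings, although 72 of its exonic bases overlap Stat5a on the opposite strand. Stat5a and Stat5b, which act downstream of other cytokine receptors, were at means of 5.47 and 6.03 RPKM against 2.68 and 3.06 RPKM (adjusted p = 0.0065 and 0.0095). Jak2 (66.5 against 38.4 RPKM, adjusted p = 0.021) was higher in SI-ILC2s, a call lost after rescaling to equal sums (0.056) and without SI-ILC2 replicate 2 (0.13). Jak1, the kinase bound by Il10ra and gp130, was at 17.4 and 18.0 RPKM against 24.2 and 30.2 RPKM, and Tyk2, the kinase bound by Il10rb, at 2.05 and 2.70 RPKM against 4.15 and 3.51 RPKM. Both were higher in WAT-ILC2s (adjusted p = 0.024 and 0.041), and neither call held after median-of-ratios scaling (0.072 and 0.096). Without SI-ILC2 replicate 1 or 2 these calls were lost too (0.14 and 0.092 for Jak1, 0.24 and 0.052 for Tyk2), as they were for Jak1 without WAT-ILC2 replicate 2 (0.10) and for Tyk2 without WAT-ILC2 replicate 1 (0.097). Socs3, Maf and Adam17 are named below although they were not called, and were picked after their values had been seen.

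Negative regulators of cytokine signalling included 6 of 13 tested genes that were higher in WAT-ILC2s and none higher in SI-ILC2s. Their median difference was -0.27. Over all tested genes the shares were 29.6% and 17.9%. After median-of-ratios scaling the counts were 2 and 1, and the WAT-ILC2 count was 2 without SI-ILC2 replicate 1 or 2 and 3 without WAT-ILC2 replicate 1 or 2. At an unadjusted p under 0.05 limma gave 1 gene higher in SI-ILC2s, Socs5 (adjusted p = 0.065, and 0.021 after median-of-ratios scaling). Pias2 and Socs2 kept their calls under that scaling. Socs2, an inhibitor of STAT5 signalling, was at 24.7 and 22.0 RPKM in SI-ILC2s against 44.98 and 48.92 RPKM in WAT-ILC2s (log2 difference -0.98, limma adjusted p = 0.0029). Socs1, an inhibitor of JAK kinases, was at 40.7 and 33.9 RPKM against 64.8 and 52.6 RPKM (-0.64, adjusted p = 0.025, and 0.093 after median-of-ratios scaling), a call lost without SI-ILC2 replicate 1 or 2 or WAT-ILC2 replicate 1 (0.065, 0.17 and 0.061). Socs3, the feedback inhibitor that binds gp130, was at 2.25 and 3.65 RPKM against 1.65 and 2.44 RPKM, and its libraries overlapped (0.36, adjusted p = 0.22, and 0.032 without WAT-ILC2 replicate 2).

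Genes known to respond to STAT3 or IL-10 were split. Of 24 tested, 7 calls fell on the SI-ILC2 side and 12 on the WAT-ILC2 side, with a median of -0.44. Among all tested genes 17.9% and 29.6% were called on these sides. After median-of-ratios scaling the counts in this list were 7 and 9. The WAT-ILC2 side held Ier3, a stress-induced regulator of cell death, at 3.25 and 3.63 RPKM in SI-ILC2s against 19.8 and 15.4 RPKM in WAT-ILC2s (log2 difference -2.06, limma adjusted p = 5.1e-04). It also held the adhesion molecule Icam1 (5.62 and 16.1 against 40.2 and 47.5 RPKM), the growth factor Vegfa (2.45 and 3.87 against 12.5 and 15.7 RPKM) and the transcription factor Cebpb (38.0 and 53.8 against 114 and 142 RPKM). The SI-ILC2 side held, besides Stat3, the transcriptional regulators Nfil3 (116.5 and 110.02 against 42.3 and 40.1 RPKM), Etv3 (19.2 and 17.6 against 6.42 and 6.22 RPKM) and Myc (36.0 and 36.4 against 14.2 and 14.5 RPKM). Many of these genes respond to other signals as well.

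Transcriptional regulators of Il10 were called higher in SI-ILC2s for 9 of 21 and in WAT-ILC2s for 4, with a median of 0.32. The background shares, over all tested genes, were 17.9% and 29.6%. The WAT-ILC2 count was 2 after median-of-ratios scaling and on leaving out any 1 of the 4 libraries. Ahr, the aryl hydrocarbon receptor, was at 9.97 and 11.7 RPKM in SI-ILC2s against 1.18 and 1.04 RPKM in WAT-ILC2s (log2 difference 2.49, limma adjusted p = 2.4e-04). Irf4, a factor of lymphocyte activation, was at 2.83 and 4.96 RPKM against 0.424 and 0.698 RPKM (adjusted p = 0.0026), and reached the filter only in SI-ILC2s. Bhlhe40, a known repressor of Il10, was at 339.8 and 317 RPKM against 115 and 109 RPKM (adjusted p = 9.4e-04). Nfatc2, a calcium-regulated factor, was at 0.826 and 0.829 RPKM against 4.65 and 4.57 RPKM and led the WAT-ILC2 side (adjusted p = 5.1e-04), followed by Creb1, Junb and Sp1. Nfatc2 and Sp1 reached the filter only in WAT-ILC2s. The calls of Junb and Sp1 were lost after median-of-ratios scaling (0.065 and 0.11) and without SI-ILC2 replicate 1 (both 0.22) or 2 (0.15 and 0.11). Maf, a direct activator of Il10, was at 1.65 and 1.82 RPKM against 2.33 and 2.31 RPKM (adjusted p = 0.12).

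Genes that shed receptors or direct their turnover held 4 of 10 tested genes higher in WAT-ILC2s and none higher in SI-ILC2s. These counts are to be read against 29.6% and 17.9% of all tested genes. The counts were 3 and 1 after median-of-ratios scaling, and the WAT-ILC2 count was 2 without SI-ILC2 replicate 1 or WAT-ILC2 replicate 1. Adam10, a protease that cleaves IL-6RA, was at 5.30 and 5.70 RPKM in SI-ILC2s against 8.87 and 7.37 RPKM in WAT-ILC2s (limma adjusted p = 0.039). Its call was lost after median-of-ratios scaling (0.13) and without SI-ILC2 replicate 1 or 2 or WAT-ILC2 replicate 1 (0.20, 0.11 and 0.16). Rhbdf2, which brings the protease ADAM17 to the cell surface, was at 0.577 and 0.620 RPKM against 2.24 and 2.00 RPKM (adjusted p = 0.0018), and reached the filter only in WAT-ILC2s. Timp3, an inhibitor of both proteases, was at 0.979 and 1.05 RPKM against 2.67 and 4.65 RPKM (adjusted p = 0.0063), and 1733 of its exonic bases overlap Syn3 on the opposite strand. Stub1 was at 5.73 and 7.02 RPKM against 10.4 and 12.5 RPKM (log2 difference -0.76, limma adjusted p = 0.011). Its difference was -0.63 without SI-ILC2 replicate 1, and 1084 of its exonic bases overlap Jmjd8 on the opposite strand. Adam17 itself was at means of 2.73 and 3.11 RPKM (adjusted p = 0.46). At an unadjusted p under 0.05 limma gave 1 gene higher in SI-ILC2s, Rhbdf1 (adjusted p = 0.052, and 0.022 after median-of-ratios scaling).

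**Figure D5:**
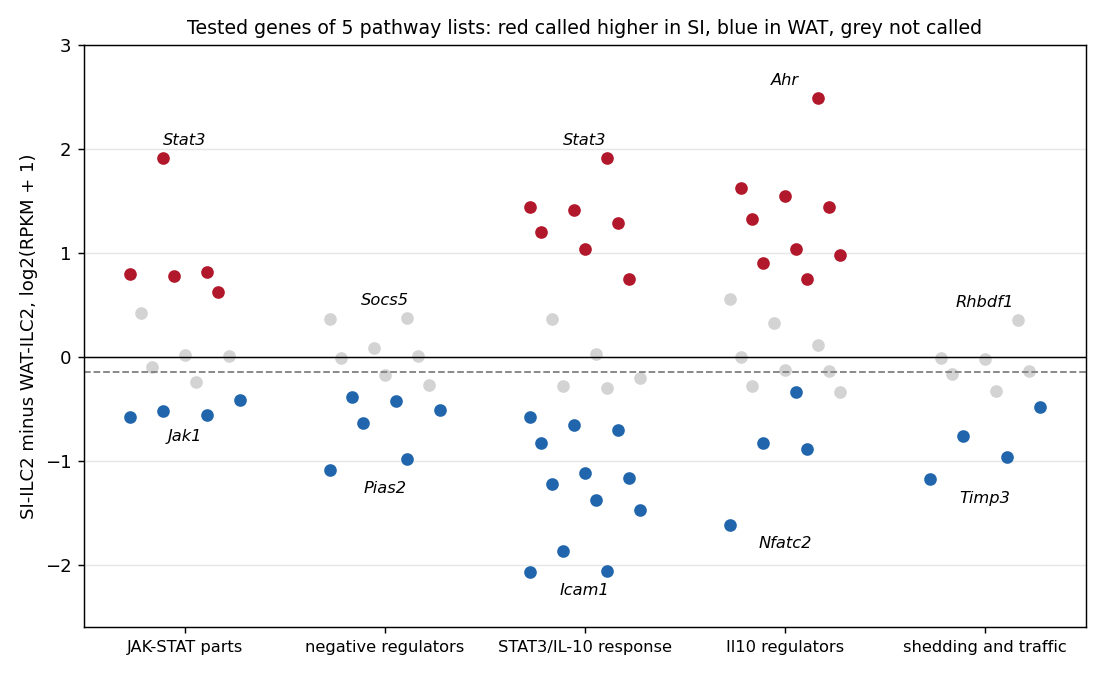
Difference in log2(RPKM + 1), SI-ILC2 minus WAT-ILC2, of each tested gene in 5 lists (1 point per gene, spread sideways for legibility). Red points were called higher in SI-ILC2s, blue points higher in WAT-ILC2s and grey points were not called, and the dashed line is the median of all tested genes (-0.15). The genes at both ends of each list are named, with Stat3 at 1.91 and Ahr at 2.49 on the intestinal side.

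Genes with the most similar profile over the 4 libraries were found by the Euclidean distance of log2(RPKM + 1). For Il10ra these were Ctla2a, Dok2 and Ptgir (distances 0.43 to 0.537), for Il10rb Hsd17b4, Ngly1 and Acp5 (0.161 to 0.21), and for Il27ra Uap1, Lgals3bp and Gpsm3 (0.187 to 0.246). For Il6st they were Lpin1, Mettl15 and Nme7 (0.0977 to 0.17), and for Il6 Tnfaip8, Ikzf3 and Asb2 (0.48 to 0.577). With 4 libraries such a profile holds little more than a level in each tissue.

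The ILC2 markers were present in every library. Gata3, the factor that defines the lineage, was at 354 and 377 RPKM in SI-ILC2s against 338 and 397 RPKM in WAT-ILC2s. Of 14 such markers, 5 calls lay on the SI-ILC2 side and 4 on the other, against 17.9% and 29.6% of all tested genes. The largest differences towards SI-ILC2s were in Il17rb (means of 152 against 12.3 RPKM) and Il13 (82.0 against 18.4 RPKM). Those towards WAT-ILC2s were in Thy1 (3.79 against 22.9 RPKM) and Il1rl1 (14.8 against 64.5 RPKM). Several marker lists of other cells had higher sums in both WAT-ILC2 libraries, the order of the receptor genes. The summed RPKM of 8 fibroblast markers was 1.24 and 1.58 in SI-ILC2s against 10.3 and 4.95 in WAT-ILC2s, with 5 of the 8 under 1 RPKM in all libraries. Dcn led this sum (0.0609 and 0.0958 against 6.11 and 1.87 RPKM). Pdgfrb had the opposite order (0.71 and 0.99 against 0.32 and 0.37 RPKM), and Pdgfra overlapped. The sum of 10 macrophage and dendritic cell markers was 4.81 and 3.64 against 7.81 and 10.3, with 7 under 1 RPKM in all libraries. For 8 adipocyte markers the sums were 0.796 and 0.445 against 5.25 and 4.80, led by Fabp4 (0.257 and 0.172 against 4.32 and 3.43 RPKM). The other 7 were under 1 RPKM in all libraries. Of these, Retn, Lpl and Cfd had the order of Fabp4, and Adipoq, Plin1, Lep and Cidec overlapped. For 6 red cell markers the sums were 41.6 and 13.2 against 139.8 and 88.9, and for 8 T cell markers 9.67 and 7.78 against 24.9 and 14.0. For 8 epithelial markers they were 6.57 and 8.08 against 13.6 and 12.0, and for 9 granulocyte and mast cell markers 1.22 and 1.25 against 2.19 and 1.91. Under 1 RPKM in all libraries were 5 of the T cell, 6 of the epithelial and 8 of the granulocyte and mast cell markers. The sums of 8 endothelial markers (4.80 and 7.29 against 6.03 and 9.97) and of 6 mesothelial markers (0.698 and 4.94 against 3.16 and 1.01) overlapped. Of the endothelial markers, Pecam1 was higher in both SI-ILC2 libraries (3.88 and 4.49 against 2.04 and 2.97 RPKM). Cdh5, Kdr, Tek, Emcn and Vwf were higher in both WAT-ILC2 libraries, and Tie1 and Cldn5 overlapped. Of the mesothelial markers, Krt8 was at 0.240 and 4.32 against 0.369 and 0.194 RPKM. Msln, Upk3b and Lrrn4 were higher in both WAT-ILC2 libraries, and Wt1 and Krt19 overlapped. None of these genes was at 0 in all 4 libraries. The part of such cells in the values of Il10ra, Il10rb, Il27ra, Il6st, Lifr and Osmr was not tested. Markers of B and plasma cells had the order of Il6. Their sum over 7 genes was 24.9 and 19.0 in SI-ILC2s against 3.20 and 2.66 in WAT-ILC2s, led by Cd79b (17.3 and 13.1 against 2.59 and 2.36 RPKM) and the J chain gene, listed as Igj (7.02 and 5.51 against 0.0129 and 0 RPKM). The B cell genes Ms4a1 and Pax5 reached at most 0.0496 and 0.119 RPKM. The sum of 6 natural killer and type 1 lymphoid cell markers (1.57 and 1.59 against 0.591 and 0.791) was also higher in both SI-ILC2 libraries. The part of these cells in the Il6 result was not tested.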

How the data were processed

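RNA-seq of sorted ILC2s was deposited by the authors as 1 table of RPKM values. Per the submitters' processing notes, reads were handled with STAR 2.6.0 and featureCounts 1.6.0 (Subread) on mm10 (GRCm38). The sources used here do not state the annotation, the strand setting, the treatment of shared reads or the sort gates. Depth, recovered from the steps between low values, was about 76.05 and 59.6 M reads in the SI-ILC2 and 55.75 and 65.55 M reads in the WAT-ILC2 libraries. At these depths 86.3% to 88.1% of the low values checked came out within 0.1 of a whole read (12.2% to 14.7% at the median of other depths). Read numbers in the text are approximate, from these depths and GENCODE M21 exon lengths. They were not used for tests.

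Genes with at least 1 RPKM in at least 2 libraries (8230 of 22083) were tested with limma 3.58.1 (R 4.3.3) on log2(RPKM + 1), with a variance trend and Benjamini-Hochberg adjustment over all of them at 0.05. The adjusted p-values in the text come from this fit or the named alternative. The fit had 2 residual degrees of freedom, and 6.39 with those borrowed across genes. It was also run on simulated data in which the libraries varied independently. That run cannot speak to spread shared by same-numbered libraries or to technical replication. Fold changes on this scale understate the change of low genes. Coordinates and overlaps are from GENCODE M21 (GRCm38), matched by symbol (21016 symbols). Ratios and lists were computed with Python 3.11.15 (pandas 2.3.3).

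The genes and lists were chosen with earlier results of these data known. From each pathway list, up to 4 called genes per direction with the largest difference could be named, with every tested receptor and ligand of both families, and the 3 nearest profiles of each called gene. Chromosomal neighbours, and other genes where said, were added after their values had been seen. Alternatives were the pseudocount (0.1, 0.5), the filter, the scaling, the variance trend, the robust option, the replicate block and leaving out each library. Some results are not reported here.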

Additional observations from a re-analysis of the deposited data

How the results depend on the processing

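Under 15 alternative settings, Il10ra (-2.42 to -2.09), Il10rb (-1.32 to -1.01) and Il6 (1.97 to 2.46) were called in the same direction each time. Il6st was called in each of the 12 settings in which it was tested (-1.83 to -0.89). It had no value without WAT-ILC2 replicate 1 or 2 or with the filter applied to all 4 libraries, which left 3 of these genes higher in WAT-ILC2s. Il27ra ranged from -1.15 to -0.72 when 1 library was left out, and its call was lost only without SI-ILC2 replicate 1 (adjusted p = 0.068), which also left 3. Over all genes, 1470 calls lay on the SI-ILC2 side and 2436 on the WAT-ILC2 side. With a replicate block these were 2271 and 3430. Leaving out 1 library gave 745 to 1549 and 1439 to 1995. The lone library of a tissue is then assumed to vary like the other group. Same-numbered libraries deviated together (correlation 0.57). The labels do not say what, if anything, libraries with the same number share, and the main fit has no replicate block. With the replicate block Socs3 (0.017) and Osm (0.0052) were called in SI-ILC2s. Of 300 counts of called genes per list and setting, 246 were within 1.5 times the reported count and 54 were not. Lifr, Osmr, Il6ra and Il10, below the filter, rest on about 19 to 360 reads per library, and a missed threshold there does not show equal levels.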
